A study of Mus musculus with 6 samples.

Results

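Neat1 and Malat1 are long non-coding RNA genes that lie next to each other on mouse chromosome 19, and 30 of the 69689 accessible regions of the series surround them. The regions were chosen by position: the midpoint had to lie inside, or within 100 kb of, the annotated limits of Malat1 (5795690 to 5802672, mm10) or Neat1 (5824708 to 5845480). This gave a single window of 249.791 kb. The regions come from ACC-seq, an assay that marks open chromatin by the insertion of adapters with Tn5 transposase, and from wild-type mouse embryonic stem cells of the R1 line. All 6 libraries came from cultures on inactivated embryonic fibroblast feeders in medium with serum, LIF, the GSK3 inhibitor CHIR-99021 and the MEK inhibitor PD0325901, and feeders were removed by replating for 30 min. The Fresh group was tagmented unfixed at 37 °C. The Fix group was held in 1% formaldehyde for 10 min and tagmented at 55 °C. The Fix_1,6-Hex group was exposed to 1,6-hexanediol, which disperses many condensates, at 10% (w/v) for 30 s, was then fixed with the alcohol still present, and was also tagmented at 55 °C. Each group had 2 libraries.

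The question of the study was how accessibility depends on condensates. The table gives a position and the name of 1 of 9 clusters for each region, and 0 columns of values per library. Fix against Fresh and Fix_1,6-Hex against Fix therefore had nothing to be tested on, the depth per library is unknown, and the accessibility pattern that each cluster name stands for is not stated. Cluster names are reported below as labels without a direction. A single locus has no replicate, so its values are set beside those of the whole table as a description, without a test. To set the cell type beside the table, regions touched 6 of 6 stem cell genes (Nanog, Pou5f1, Sox2, Klf4, Esrrb and Zfp42) and covered 28.3% (Esrrb) to 84.7% (Pou5f1) of their length. They also touched 4 of 4 fibroblast genes (Col1a1, Col1a2, Thy1 and Pdgfra), where they covered 2.34% to 9.82%. Since 72.9% of all protein-coding genes were touched, with a median coverage of 2.80%, the touch counts do not tell the cell types apart.

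Both RNAs stay in the nucleus and are tied to nuclear bodies that are counted among the condensates. The long form of Neat1 RNA is the scaffold of the paraspeckle, around which RNA-binding proteins such as NONO and SFPQ assemble. Malat1 RNA collects in nuclear speckles, which are rich in splicing factors, and its 3′ end is cut off to release a small tRNA-like RNA, mascRNA. Malat1 is transcribed towards lower coordinates, so its start site is its upper limit, and Neat1 is known to run in the same direction.

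The promoter sequences below are shown because they are the letters under 5 of the regions, 1 at Malat1 and 4 at protein-coding neighbours. They come from RefSeq on build GRCm38.p6 (the mm10 assembly), are written 5′ to 3′ on the gene's own strand, and end at the start site for the neighbours. The Malat1 sequence runs 50 bases further, into the RNA. Capitals mark matches to the motifs searched, on either strand, so the CCAAT box can read ATTGG, the GC box CCGCCC and the TGACG motif CGTCA. The first is the whole Malat1 promoter, chr19:5802623-5802922 on the minus strand, inside a region of cluster 6.
Malat1: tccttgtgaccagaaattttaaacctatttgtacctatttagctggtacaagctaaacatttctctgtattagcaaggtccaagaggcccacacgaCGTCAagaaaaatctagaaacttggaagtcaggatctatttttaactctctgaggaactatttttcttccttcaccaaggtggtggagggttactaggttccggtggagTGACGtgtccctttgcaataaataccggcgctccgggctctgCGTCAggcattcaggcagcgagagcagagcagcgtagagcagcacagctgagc
The next are Tigd3 (chr19:5894129-5894378, minus strand) and Cdc42ep2 (chr19:5924817-5925066, minus strand), both in regions of cluster 3.
Tigd3: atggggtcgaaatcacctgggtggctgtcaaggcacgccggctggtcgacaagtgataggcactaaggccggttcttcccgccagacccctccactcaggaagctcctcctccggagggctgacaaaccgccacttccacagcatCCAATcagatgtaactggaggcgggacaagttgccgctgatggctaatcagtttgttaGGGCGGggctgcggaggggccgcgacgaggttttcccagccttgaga
Cdc42ep2: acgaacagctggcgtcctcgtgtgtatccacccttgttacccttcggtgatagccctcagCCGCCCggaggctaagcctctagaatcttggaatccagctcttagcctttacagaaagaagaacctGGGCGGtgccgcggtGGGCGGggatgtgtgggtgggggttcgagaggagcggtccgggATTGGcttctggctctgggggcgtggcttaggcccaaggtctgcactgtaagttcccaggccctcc
The last are Frmd8 (chr19:5875209-5875458, minus strand) and Dpf2 (chr19:5912872-5913121, minus strand), both in regions of cluster 8.
Frmd8: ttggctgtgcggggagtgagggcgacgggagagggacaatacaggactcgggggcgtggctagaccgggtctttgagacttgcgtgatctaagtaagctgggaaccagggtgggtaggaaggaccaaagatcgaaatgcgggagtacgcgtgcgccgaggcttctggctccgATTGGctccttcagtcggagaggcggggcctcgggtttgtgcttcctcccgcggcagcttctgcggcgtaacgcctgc
Dpf2: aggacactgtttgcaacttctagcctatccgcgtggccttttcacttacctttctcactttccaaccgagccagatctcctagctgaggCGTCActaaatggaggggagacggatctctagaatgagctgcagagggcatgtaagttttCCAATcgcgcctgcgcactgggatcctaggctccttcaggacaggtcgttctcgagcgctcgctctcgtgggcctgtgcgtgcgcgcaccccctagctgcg

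Malat1 lay whole inside a single accessible region. That region spanned 5793111 to 5804735, was 11625 bp wide and belonged to cluster 6. It began 2579 bp below the lower limit of the gene and ended 2063 bp above its upper limit, so it held all 6983 bp of Malat1, its start site and promoter, and the 58 bp Mascrna gene (5795924 to 5795981). In the whole table, Malat1 was the only gene of its length or longer that was covered from end to end, among 23583 genes. The median of those genes was covered over 2.21% of its length, and 28.1% of them were touched by no region. Among the 7141 lncRNA genes at least as long, the median was 0 and 50.1% had no region. The length limit was that of Malat1 itself, which puts it at the short edge of both sets. No region was wider than 12664 bp and all were set apart by gaps, so no gene longer than that could be covered whole. The place of Malat1 is therefore in part built in and no measure of rarity.

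Neat1 was covered in part, with the accessible stretch at its 5′ end. A region of cluster 4, 12229 bp wide (5839699 to 5851927), held the upper 5782 bp of the gene, which is 27.8% of its length. The same region went on for 6447 bp beyond the upper limit, across the 5493 bp between Neat1 and Frmd8, and took in the last 954 bp of Frmd8, a gene for a FERM-domain protein. A second region of 1497 bp (5835920 to 5837416, cluster 9) lay wholly inside the gene. Below it, 11212 bp or 54.0% of Neat1, on the 3′ side, held no region.

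In all, 7279 of the 20773 bp of Neat1 (35.04%) lay inside regions. Among 13068 genes of at least its length, 24 others were covered as far or further. For lncRNA genes the count was 7 among 2906. The gene has 2 RefSeq transcripts, and exon limits were not used here, so no exon or intron is named. The median was 1.93% over all genes at least as long as Neat1 and 0.531% over lncRNA genes at least as long. Neat1 thus stood high but not alone among genes of its length or longer. That set starts at the length of Neat1 itself, so the others are as long or longer. No region was wider than 12664 bp, which limits the share of a longer gene that a single region can cover. The high place of Neat1 is therefore in part built in.

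**Figure D1:**
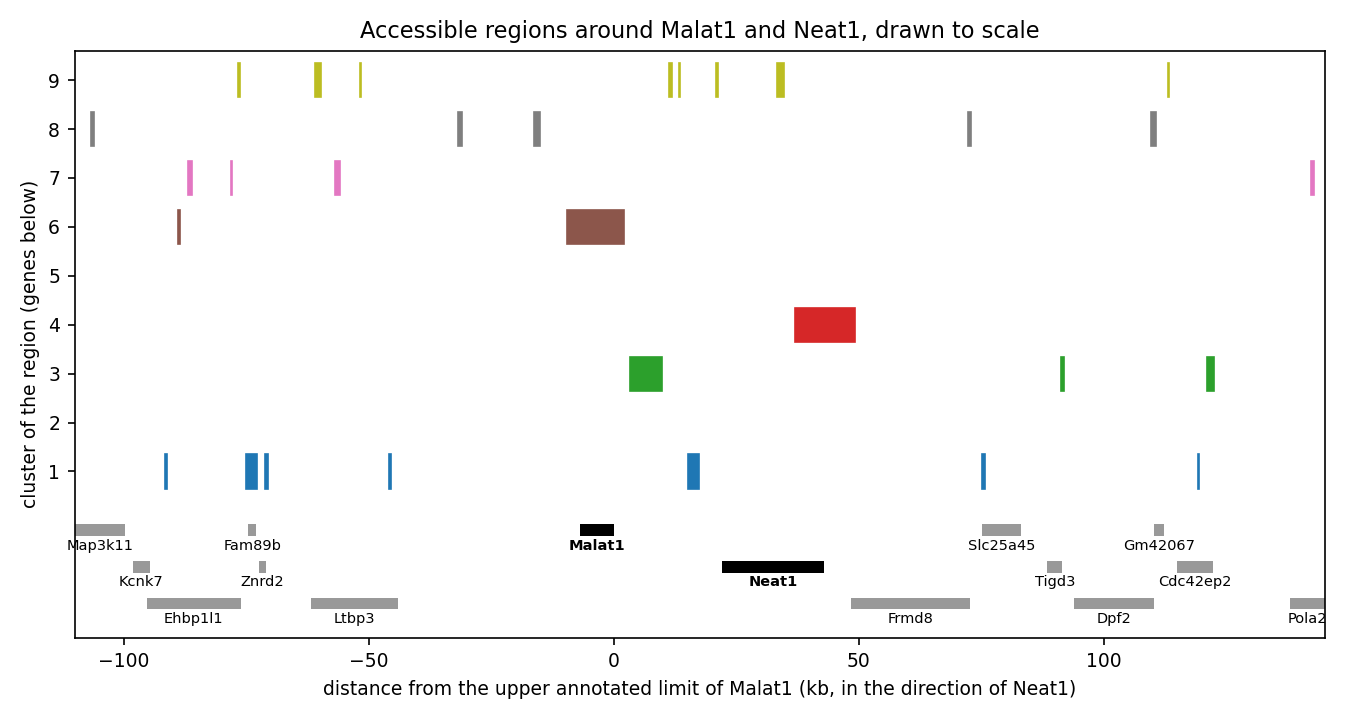
Each box is an accessible region, drawn to scale on the x axis as distance in kb from the upper limit of Malat1 and placed on the y axis by its cluster. Grey and black bars are annotated genes (the small Mascrna gene inside Malat1 and 1 neighbour are left out). The 3 broad boxes belong to clusters 6, 3 and 4, and all other regions are 2186 bp wide or less.

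The regions at Neat1 and Malat1 were the third and the fourth widest of the whole table. Only a region in Etv5 (12664 bp, cluster 6) and one in Esrrb (12608 bp, cluster 5) were wider. Within their clusters, the Neat1 region was the widest of the 2420 regions of cluster 4, whose median was 1366.5 bp, and the Malat1 region was the second widest of the 8821 of cluster 6, whose median was 583 bp. No 2 regions of the table were closer than 1001 bp. How regions were called and joined is not stated, and whether a wide region holds several joined pieces was not tested. Widths and coverages therefore count every base between the limits of a region, whether or not each base was open. Below the locus in rank, the regions in places 5 and 6 lay at Mybl2 (11599 bp) and at Ftl1 with Gys1 and Bax (11594 bp). These genes were named after their values were seen.

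A further broad region lay between the genes. It spanned 5805885 to 5812564, was 6680 bp wide and belonged to cluster 3. It started 3.212 kb above the upper limit of Malat1, which is upstream of its start site, and ended 12.143 kb below the lower limit of Neat1, and it touched no annotated gene. Its width ranked 86 in the whole table. It was number 23 in width of 20344 intergenic regions, whose median was 403 bp, and number 4 of the 255 intergenic regions of cluster 3. Only 1149 bp separated it from the Malat1 region.

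The 3 broad regions, of 3 different clusters, stood within 58.817 kb. Of the 86 regions of the table with a width of 6680 bp or more, only 1 other set of 3 neighbours fitted into as short a stretch, a span of 38.01 kb on an unplaced scaffold. The next closest set spanned 327.923 kb of chromosome 2. The set size of 3 and the limits of 6680 bp and 58.817 kb were taken from the locus itself. Its high place is therefore in part built in. Of those 86 regions, 29 belonged to cluster 6, 12 to cluster 3 and 10 to cluster 4. The 3 regions made up 30534 of the 51311 bp inside regions at the locus (59.5%). Without them, the median width of the rest was 618 bp, against 630 bp with them and 474 bp in the whole table.

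**Figure D2:**
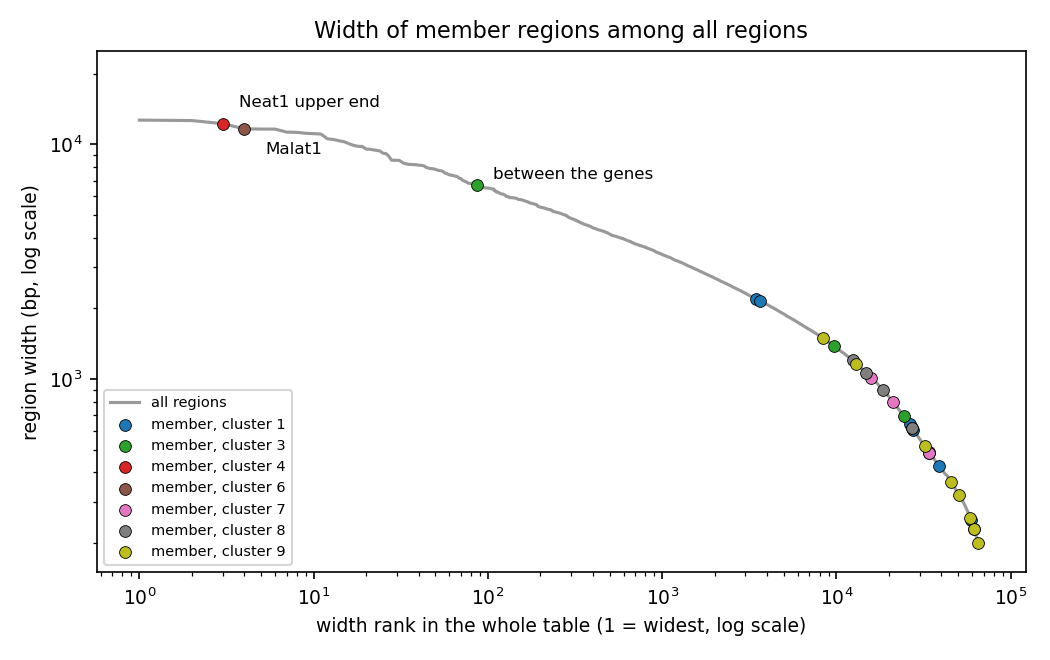
Width of each region (y axis, bp, log scale) against its rank in the table (x axis, log scale), with all 69689 regions as the grey line and the 30 regions around Neat1 and Malat1 as points coloured by cluster. The 3 labelled points are 12229, 11625 and 6680 bp wide, and the other 27 lie at ranks of 3457 and beyond.

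Between the Malat1 region and the Neat1 region lay regions of 200 to 6680 bp, with gaps of up to 12081 bp. Above the cluster 3 region came regions of 516 bp (5813959 to 5814474, cluster 9) and 200 bp (5816047 to 5816246, cluster 9), the latter as narrow as any in the table. A region of 2147 bp followed (5817806 to 5819952, cluster 1), 5.83 kb from the lower limit of Neat1 and 16.2 kb from Malat1. The last before Neat1 was 365 bp wide (5823474 to 5823838, cluster 9), with its midpoint 1.05 kb below the lower limit, where the RNA ends. Read upwards from Malat1, the clusters of the 8 regions were 6, 3, 9, 9, 1, 9, 9 and 4, so those at the gene starts differed from those between. Together the 8 regions covered 59.9% of their 58.817 kb. The 22 regions outside this stretch were 229 to 2186 bp wide, with a median of 619 bp.

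On the side of Malat1, the nearest region lay 8.65 kb below the gene (5786443 to 5787641, 1199 bp, cluster 8). Ltbp3, which binds latent TGF-beta, held 4 regions inside the gene and none with its midpoint within 1 kb of an end. They were 1161 bp (5741725 to 5742885, cluster 9), 1014 bp (5745776 to 5746789, cluster 7), 229 bp (5750916 to 5751144, cluster 9) and 607 bp (5756702 to 5757308, cluster 1) wide, at 53.4, 49.4, 44.7 and 38.7 kb from Malat1. Each of these was far narrower than the region at Malat1.

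Further out on that side, the ends of 3 protein-coding genes had regions of clusters 1 and 9. Znrd2 had a cluster 1 region of 485 bp (5731574 to 5732058, 63.9 kb from Malat1), and Fam89b lay whole, over 1580 bp, inside a cluster 1 region of 2186 bp (5727710 to 5729895, 66.9 kb). At the start of Ehbp1l1, an EH-domain-binding protein gene, stood a cluster 9 region of 320 bp (5726084 to 5726403, 69.4 kb). Inside Ehbp1l1 lay 4 more, of 229 bp (5724580 to 5724808, cluster 7, 71.0 kb), 797 bp (5715793 to 5716589, cluster 7, 79.5 kb), 488 bp (5713696 to 5714183, cluster 6, 81.8 kb) and 425 bp (5711159 to 5711583, cluster 1, 84.3 kb). Neighbouring regions within this gene thus carried 4 different cluster names. The outermost region lay inside Map3k11, the gene of the kinase MLK3 (5696011 to 5696630, 620 bp, cluster 8, 99.4 kb), while Kcnk7, of the potassium channel family, was touched by none.

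On the side of Neat1, no region was found for 23051 bp above the broad one, which is most of the Frmd8 gene. The start of Frmd8 then had a cluster 8 region of 618 bp (5874979 to 5875596, 29.8 kb from Neat1). The start of Slc25a45, a mitochondrial carrier family gene, had a cluster 1 region of 640 bp (5877793 to 5878432, 32.6 kb). Frmd8 thus had a gene-end region at its start only, in cluster 8. Its last 954 bp lay inside the edge of the broad cluster 4 region, whose midpoint is near the limit of Neat1. Tigd3, derived from a transposase, had a cluster 3 region of 694 bp at its start (5893820 to 5894513, 48.7 kb).

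Dpf2 encodes BAF45D, a subunit of the BAF chromatin remodeller, and starts back to back with the lncRNA gene Gm42067. Their starts shared a cluster 8 region of 1065 bp (5912288 to 5913352, 67.3 kb from Neat1), and a cluster 9 region of 255 bp (5915698 to 5915952, 70.3 kb) lay near the other end of Gm42067. Cdc42ep2, a CDC42 effector gene, had a cluster 3 region of 1383 bp at its start (5923783 to 5925165, 79.0 kb) and a cluster 1 region of 251 bp inside (5921791 to 5922041, 76.4 kb). The outermost region lay in Pola2, which encodes a subunit of DNA polymerase alpha (5944963 to 5945448, 486 bp, cluster 7, 99.7 kb). Just outside the limit of 100 kb was a cluster 1 region on each side. The one beyond Neat1 was 655 bp wide, at 111.3 kb from Neat1. The one on the opposite side was 2174 bp wide, at 106.7 kb from Malat1.

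The locus was dense in regions and, more than that, in bases inside regions. It held 12.01 regions per 100 kb, against 3.58 on chromosome 19 and 2.72 over the autosomes and chromosome X. When these chromosomes were divided into 10245 windows of the same length, the median window held 4 regions and 130 windows (1.27%) held 30 or more. Many genes lie here, however, since 13 protein-coding genes reach into the window. In the 175 windows with at least that many, the median was 23 regions and 43 windows held 30 or more. Bases inside regions made up 20.5% of the locus, against a median of 0.940% over all windows and 8.75% over the gene-dense ones. Only 3 of the 10245 windows reached as much. The windows lay on a fixed grid that can split other loci and also crosses this one, whereas the locus window was placed on its genes. These ranks are therefore a description.

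By position, 11 of the 30 regions (36.7%) had the midpoint within 1 kb of a gene limit, against 24.4% of all regions. A further 13 lay inside genes (46.4% of all regions did) and 6 between genes (29.2%). The Malat1 region counts as inside a gene, because it is so wide that its midpoint is 3.75 kb from the start site it covers. Of the 13 protein-coding neighbours, 11 had a region within 1 kb of an end, against 60.9% of 21887 protein-coding genes, and for Map3k11 and Pola2 that region lay outside the window. Kcnk7 and Ltbp3 had none. The locus took in 3 of the 4215 regions at lncRNA gene ends, those of Neat1 and Gm42067. The median width of the 4215 was 754 bp, and 3.75% of them were 3 kb or wider.

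All but 2 of the 9 clusters were present at the locus. Cluster 9 had 8 regions (26.7%, exact binomial 95% interval 12.3 to 45.9), cluster 1 had 7, cluster 8 had 5, cluster 7 had 4, cluster 3 had 3, cluster 6 had 2 and cluster 4 had 1, while clusters 2 and 5 had 0. The interval covers counting error only and treats regions as independent, which neighbours are not. In the whole table, cluster 9 made up 26.2%, cluster 1 18.7%, cluster 8 9.04%, cluster 7 18.9%, cluster 3 3.61%, cluster 6 12.7% and cluster 4 3.47% of regions. The table's share lay inside the locus's interval for each cluster, and with 30 regions a count of 0 allows up to 11.6% by the exact interval. Regions next to each other had the same cluster in 5 of 29 pairs (17.2%), against 19.4% of neighbouring pairs over the table.

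**Figure D3:**
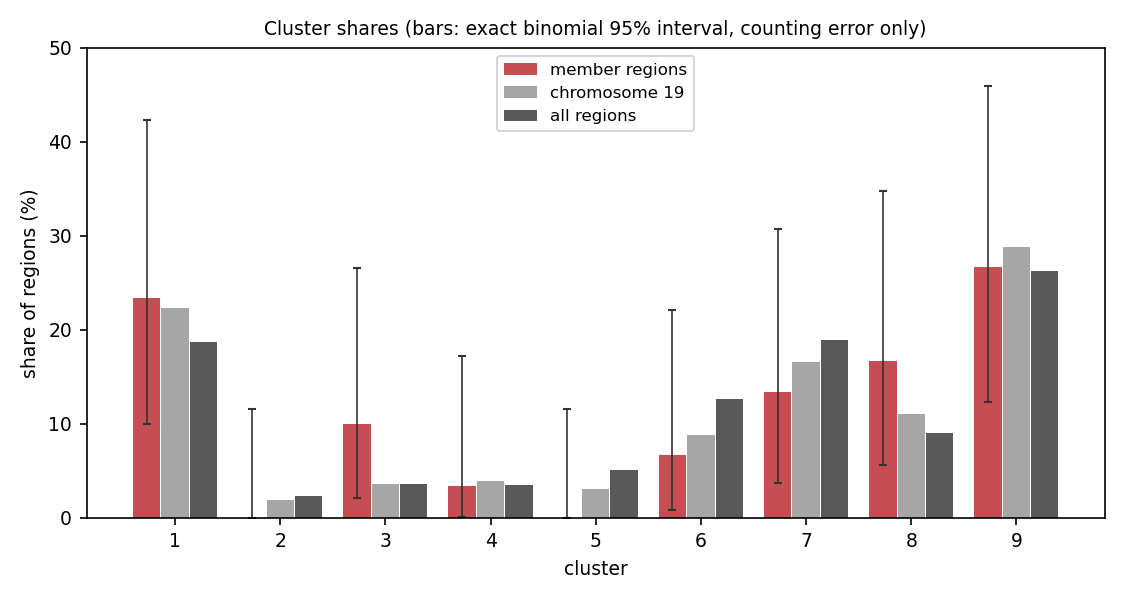
Share of regions in each cluster (y axis, percent) for the 30 regions around Neat1 and Malat1, for chromosome 19 and for all regions. Error bars are exact binomial 95% intervals, such as 12.3% to 45.9% for cluster 9, and each holds the share of the whole table.

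Widths varied within clusters. The single cluster 4 region and 1 of the 2 cluster 6 regions were by far the widest, the other cluster 6 region being 488 bp wide. The 3 of cluster 3 were 694, 1383 and 6680 bp wide (table median 1279 bp). The 7 of cluster 1 ran from 251 to 2186 bp with a median of 607 bp (496 bp over the table). Regions of cluster 8 had a median of 900 bp (865 bp over the table), of cluster 9 342.5 bp (292 bp over the table) and of cluster 7 641.5 bp (345 bp over the table). Regions of 3 kb or more were 3 of 30 here and 2.10% of the table, where 24.4% of them belonged to cluster 6, 12.4% to cluster 4 and 11.2% to cluster 3.

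Motifs were counted in the promoters of 11 genes of the window, Malat1 among them. Searched on both strands were the TATA box TATAAA, the CCAAT box, the GC box GGGCGG, the E-box CACGTG, the cyclic AMP response element TGACGTCA and the ETS motif CCGGAAG. Also searched were the AP-1 motif TGACTCA, the octamer ATGCAAAT, the ESRRB motif TCAAGGTCA and the palindromic NRF1 motif. The 300 bases of Malat1 held none of these 10 (TATAAA is in 13.6% of all promoters, CACGTG in 7.15%, TGACGTCA in 1.79%, CCGGAAG in 8.86%, TGACTCA in 5.20%, ATGCAAAT in 1.74%, TCAAGGTCA in 0.423% and the NRF1 motif in 0.971%). The CCAAT box was found at 5 of the 11 genes, Tigd3 (105 bases before the start site), Cdc42ep2, Frmd8, Dpf2 and Gm42067. It is in 37.4% of the 32851 promoters of the RefSeq table. The promoters of Dpf2 and Gm42067 overlap, and the match counted for each is the same site. For Gm42067 that site lies past the start site, at position 15 of the transcribed side. The GC box was found at 6, Tigd3, Cdc42ep2 (3 times), Kcnk7, Ehbp1l1, Znrd2 and Slc25a45, and is in 35.7%. Ltbp3, like Malat1, had neither, but held an AP-1 motif, and Ehbp1l1 and Znrd2 also held the ETS motif. A further motif, TGACG, which is also part of TGACGTCA, was added after the Malat1 sequence had been read. It stands 3 times in the Malat1 promoter, starting 154, 45 and 3 bases before the start site, and was also found at Dpf2, Ehbp1l1 and Znrd2. At least 1 copy is in 20.8% of all promoters and at least 3 are in 1.03%. The cutoff of 3 is the count of Malat1 itself, so the last share is a description and no measure of rarity.

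In CpG dinucleotides, Malat1 lay among the lower of these promoters. It held 10 in 300 bases with a GC content of 47.0%, and the medians over all promoters were 7 and 52.7%. Kcnk7 also held 10, Slc25a45 held 7 and Ltbp3 3. The others held more, with 15 at Znrd2, 17 at Cdc42ep2, 20 each at Dpf2 and Gm42067, 22 at Tigd3, 28 at Frmd8 and 27 and 33 in the 2 overlapping promoters of Ehbp1l1. Of the 11 genes whose promoter in the RefSeq table lies in the window, 9 had it in or across the edge of a region of the locus. Those of Kcnk7 and Ltbp3 lay outside. A motif match is a description of the letters and not a bound site.

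The genes for the proteins of the bodies that these RNAs belong to mostly had a region at an end, and a smaller share of their length was covered than at Malat1. A list of 18 paraspeckle protein genes had a region with its midpoint within 1 kb of an end in 16 cases. A list of 20 nuclear speckle protein genes had one in 18, both against 60.9% of protein-coding genes. None of these genes was covered whole as Malat1 was, while Rbm14, Srsf2 and Srsf5 exceeded that of Neat1. The median gene was covered over 6.37% of its length in the first list and 7.34% in the second (2.80% over all protein-coding genes). No set of genes matched for expression or length was compared, so these differences cannot be assigned to the nuclear bodies. The widest region touching any gene of these lists was 3738 bp, at Rbm14.

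Cluster 4, the cluster of the Neat1 start, was found at the ends of 2 of the 16 paraspeckle genes, Taf15, which encodes an RNA-binding protein, and Matr3, a nuclear matrix protein gene. It was found at 6 of the 18 speckle genes, against 13.5% of all protein-coding genes with a gene-end region. These 6 were the splicing factor genes Srsf6, Srrm1 and U2af2, the exon junction genes Rnps1 and Acin1, and Thrap3. Cluster 6, the cluster of Malat1, was found at 0 and 1 of them (6.70% of all), the 1 being Srsf7, named after its value was seen. Among the core paraspeckle genes, Nono had regions of clusters 5 and 9, Pspc1 of cluster 3 and Rbm14 of cluster 2. Sfpq had 5 regions, covering 20.4% of the gene, but none with its midpoint within 1 kb of an end. Of the splicing factors, Srsf1 was in cluster 1, Srsf2 in cluster 3, Srsf3 in cluster 2 and Srsf4 in clusters 8 and 9. Cluster 4 was not the most frequent cluster in either list. Cluster 3 was found at 7 speckle genes (14.3% of all) and cluster 2 at 5 (9.63% of all). Among paraspeckle genes, cluster 2 was found at 6. A gene can count in more than 1 cluster, as U2af2, Rnps1 and Acin1 did.

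In the list of other lncRNA genes, those covered whole were short. Of its 18 genes, 17 were found in the annotation and 14 had a region at an end (82.4%, against 31.1% of 12727 lncRNA genes). Here too no set matched for expression or length was compared, so the difference cannot be assigned to the kind of lncRNA. Snhg8 (785 bp) and Snhg12 (2347 bp), hosts of small nucleolar RNAs, lay whole inside regions of 3617 and 4508 bp. Gas5, also a host of small nucleolar RNAs, was covered over 60.4% of 3939 bp and had a cluster 4 region at its end, as had Snhg1 and Epb41l4aos. Dancr (1278 bp) was covered over 47.0%, and Mir17hg (2339 bp) was the listed gene that no region touched, so short genes ran from none to all of their length. Of the long genes, Firre, of the X chromosome, was touched by 16 regions that covered 12.7% of it, Kcnq1ot1 of the imprinted Kcnq1 domain was covered over 1.54%, Meg3 over 5.64% and Miat over 5.99%. Many of these genes overlap others or share a start with them, so a region cannot be assigned to the lncRNA alone. Cluster 6 was found at the ends of 3 of the 14 and cluster 4 at 3, against 10.8% and 6.92% of all lncRNA genes with a gene-end region. Clusters 1 and 3 were also found at 3 each, against 23.3% and 7.13%.

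**Figure D4:**
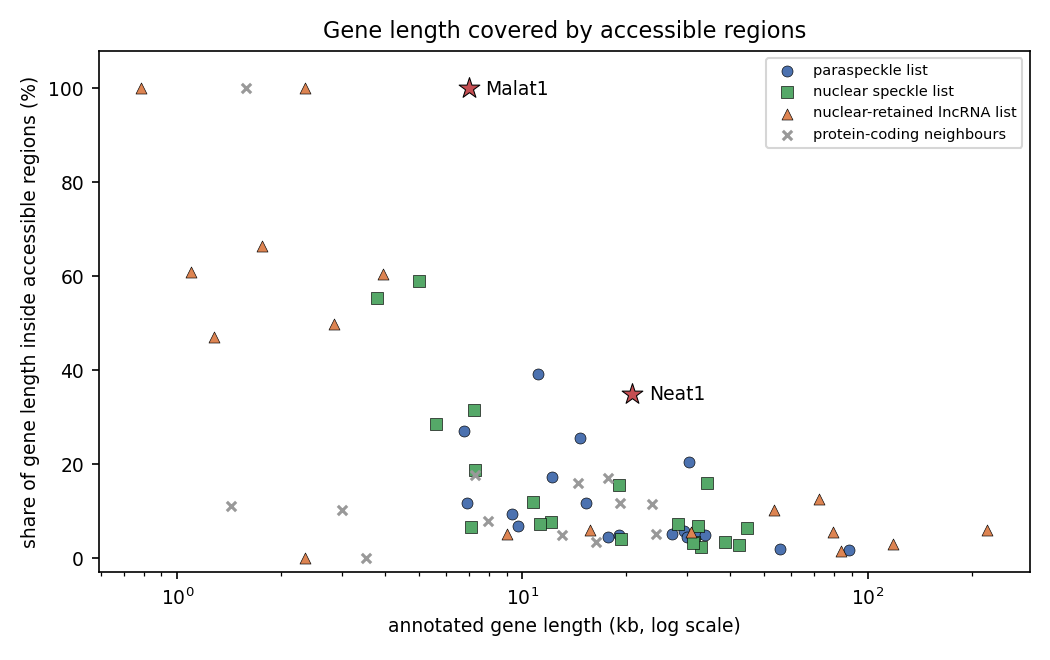
Share of the annotated length inside accessible regions (y axis, percent) against gene length (x axis, kb, log scale) for Malat1 and Neat1 (stars), their protein-coding neighbours and the 3 gene lists. Malat1 is at 100% of 6983 bp and Neat1 at 35.04% of 20773 bp, while listed genes at 100% are 785 and 2347 bp long.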

How the data were processed

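ACC-seq was run on 6 libraries of R1 cells in 3 groups of 2. Per the submitters' processing notes, the tools were Bowtie2 2.3.3.1, SAMtools 1.6, cutadapt 1.18 and Picard, with the mm10 build. For the calling, joining and clustering of regions, the tools were not given in the sources used. The deposited table has positions and cluster names for 69689 regions, with no signal, so depth and precision per library are unknown and the planned fits between groups were not run.

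Starts, counted from 0 in the table, were counted from 1 here. Regions were set against 49943 genes of a RefSeq table on GRCm38.p6, whose coordinates are those of mm10. Gene end means a midpoint within 1 kb of either annotated limit. Genes were named by a rule: both lncRNA genes, neighbours with a region at an end, listed genes with a gene-end region of cluster 4, and the first 4 others of each list. All other genes, the cell type genes among them, were named after their values were seen. The members and lists were chosen with earlier results of these data known. Some results at single genes are left out. The placing of regions was checked for coding errors on made-up positions, which is no test of the data. Tools were pandas 2.3.3, SciPy 1.17.1, numpy 2.4.6 and matplotlib 3.10.9 under Python 3.11.15.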

Additional observations from a re-analysis of the deposited data

How the results depend on the processing

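The number of regions around Neat1 and Malat1 follows the window by construction. It was 16 with a window of 50 kb and 48 with 200 kb, against 30 with 100 kb. The other 34 of 36 alternative values stayed near the main ones: counts and the density within 1.5 times, and the median width and cluster shares inside the main value's 95% interval. The windows are nested and share regions, and the intervals, from 30 regions, are wide. Closeness of the widths and shares was therefore in part built in. The alternatives were any overlap in place of the midpoint, either gene alone, windows of 50 and 200 kb, gene ends of 500 bp and 2.5 kb, and protein-coding genes only. The density was 10.7 regions per 100 kb with either other window. Gene-end counts of the paraspeckle, speckle and lncRNA lists ran from 12 to 18, 16 to 20 and 11 to 16, from the 500 bp to the 2.5 kb limit. The share of all protein-coding genes with a gene-end region moved as well, from 49.3% at 500 bp to 69.8% at 2.5 kb. The share of all lncRNA genes at these limits is not given here. No paired analysis was possible because the table holds no value per library, and for the same reason leaving out a replicate was not run. What depth limits cannot be judged without counts.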

Other observations

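Few other genes at least as long came near the coverage of Malat1. Next among genes of its length or longer, and named after their values were seen, were Fzd5, a Wnt receptor gene (87.1% of 7193 bp), the lncRNA gene Gm26688 (82.8% of 7355 bp) and Gpx4, a glutathione peroxidase gene (78.2% of 9274 bp). Of lncRNA genes as long as Neat1 or longer, 7 were covered as far or further, among them Gm29695 (45.0%) and Trp53cor1, a p53-induced lncRNA (39.5% over 5 regions). The widest region touching any of the 7 was 8089 bp, at Gm51805, against 12229 bp at Neat1.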
